A study of Mus musculus with 12 samples.

Results

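Toll-like receptors (Tlr), C-type lectins (Clec) and the receptors for the Fc part of antibodies (Fcgr, Fcer1) were examined in mouse aorta as the 49 gene names of the array that follow the naming pattern of these families (Tlr with a number, Clec with a number and letter, Fcgr with a number, Fcer1a and Fcer1g), out of 34797 gene names in all. The naming pattern itself uses no measured value. A probe was tested if every array of 1 or more groups read it well above background, as held for 34 of the 49 genes and 22769 genes in all, so a gene that was detected in 1 group only could enter through that group.

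These families sense material rather than hormones. Toll-like receptors bind microbial and damage-derived ligands and signal through adaptors such as Myd88. C-type lectins bind sugars, lipids or proteins of microbes and of injured cells, and many of them, like the activating Fc receptors, have no signalling tail of their own and use small adaptor chains, Fcer1g or Tyrobp, that carry an activation motif (ITAM) read by the kinase Syk. In vessels most of these genes are known from macrophages, monocytes and other leukocytes, and a few, such as Clec14a, from the endothelium.

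The study used male mice that were homozygous for a floxed Socs3 allele on a mixed background (129S5/SvEvBrd, C57BL6 and SJL), backcrossed to C57BL/6J for 3 generations. In smSocs3-KO mice a Cre transgene under the SM22 promoter, which is active in smooth muscle, deleted Socs3, a feedback inhibitor of cytokine signalling, and littermates without Cre served as wild type (WT), so the controls carried the floxed allele too. Aorta was taken before challenge or after 3 days of infusion by osmotic minipump of β-aminopropionitrile (BAPN, 150 mg/kg/day), which blocks the cross-linking of elastin and collagen, together with angiotensin II (AngII, 1000 ng/kg/min), a combination that leads to aortic dissection (AD). Each of the 4 groups had 3 arrays, the methods give an age of 11–14 weeks for the animals of these experiments in general, and no agent other than BAPN + AngII is named for these groups. The pre-challenge groups received no infusion per the labels, and no vehicle pump is named for them.

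Values are log2 processed signals relative to the 75th percentile of the same array, so a value of 0 is the signal at that percentile, and levels of different genes are not comparable because each probe binds with its own strength. Between 55.4% and 61.2% of the spots were well above background on an array, none were saturated, and arrays of a group correlated at 0.964 to 0.992. The number of arrays, 3 a group, limits the precision. The Socs3 probe was not lower in smSocs3-KO, with a log2 difference of 0.49 before challenge and 1.52 at day 3 (limma adjusted p = 0.208), in whole aorta where cells other than smooth muscle keep the gene, and where the probe lies relative to the deleted part was not determined. The arrays came from 2 slides, as the array barcodes give them. All WT arrays and smSocs3-KO pre-challenge replicate 1 were on slide 1, and the other 5 smSocs3-KO arrays were on slide 2, so genotype and slide cannot be told apart at day 3. A further array, WT day 3 replicate 4, had most of these receptor genes close to the pre-challenge level.

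Upstream sequence is shown for 7 receptor genes that were higher in the mean challenge response (the average of the WT and smSocs3-KO responses), 5 with and 2 without the first of the patterns searched, and for Clec2d, which carried the largest difference between genotypes. It shows how alike or unlike the promoters of genes called together were in these patterns. RefSeq start sites (GRCm38.p6) were given for 41 of the 49 genes, and the 200 bases before each start were searched on both strands for 3 short patterns: GAGGAA, the core of the sites bound by PU.1, the transcription factor of the myeloid lineage; TTCNNNGAA, the GAS form bound by STAT proteins, which Socs3 restrains; and TTNNGCAA, a C/EBP-type form. Each line runs 5′ to 3′ on the strand of the gene and ends at the base before the start. Capitals mark the PU.1-type and GAS patterns, which did not overlap each other in these windows.
Fcgr1 (chr3:96293970-96294169, - strand, GRCm38.p6): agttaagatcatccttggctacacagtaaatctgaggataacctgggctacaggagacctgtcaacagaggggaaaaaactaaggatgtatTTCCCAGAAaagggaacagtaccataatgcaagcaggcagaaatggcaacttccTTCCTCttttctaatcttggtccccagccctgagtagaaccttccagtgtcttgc
Fcgr4 (chr1:171018726-171018925, + strand, GRCm38.p6): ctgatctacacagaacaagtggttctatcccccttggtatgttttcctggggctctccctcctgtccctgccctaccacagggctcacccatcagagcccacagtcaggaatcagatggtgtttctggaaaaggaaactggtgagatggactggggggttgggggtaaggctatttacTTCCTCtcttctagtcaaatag
Fcgr3 (chr1:171059395-171059594, - strand, GRCm38.p6): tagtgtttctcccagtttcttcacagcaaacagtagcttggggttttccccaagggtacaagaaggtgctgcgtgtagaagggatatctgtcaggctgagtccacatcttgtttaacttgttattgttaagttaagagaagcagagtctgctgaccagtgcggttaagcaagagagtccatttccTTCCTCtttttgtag
Clec4e (chr6:123289872-123290071, - strand, GRCm38.p6): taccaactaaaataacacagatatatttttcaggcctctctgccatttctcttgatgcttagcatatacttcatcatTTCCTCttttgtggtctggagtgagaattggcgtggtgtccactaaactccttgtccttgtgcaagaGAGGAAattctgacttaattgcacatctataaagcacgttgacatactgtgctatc
Tlr13 (chrX:106143075-106143274, + strand, GRCm38.p6): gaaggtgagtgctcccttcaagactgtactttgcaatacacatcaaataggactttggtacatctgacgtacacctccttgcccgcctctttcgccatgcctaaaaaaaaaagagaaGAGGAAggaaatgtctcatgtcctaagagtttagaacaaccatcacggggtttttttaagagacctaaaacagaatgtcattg
Clec4d (chr6:123261907-123262106, + strand, GRCm38.p6): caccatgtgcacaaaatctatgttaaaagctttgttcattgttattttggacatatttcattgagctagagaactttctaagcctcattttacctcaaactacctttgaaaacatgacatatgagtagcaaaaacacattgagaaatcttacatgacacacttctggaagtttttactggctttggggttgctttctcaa
Fcer1g (chr1:171234350-171234549, - strand, GRCm38.p6): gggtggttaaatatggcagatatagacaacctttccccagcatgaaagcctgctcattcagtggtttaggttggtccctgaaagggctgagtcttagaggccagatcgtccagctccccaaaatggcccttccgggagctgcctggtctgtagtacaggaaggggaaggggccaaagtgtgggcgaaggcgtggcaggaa
Clec2d (chr6:129180415-129180614, + strand, GRCm38.p6): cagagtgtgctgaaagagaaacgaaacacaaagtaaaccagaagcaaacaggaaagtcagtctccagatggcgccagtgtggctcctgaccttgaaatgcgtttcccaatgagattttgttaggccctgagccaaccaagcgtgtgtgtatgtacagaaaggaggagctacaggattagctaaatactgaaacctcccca
The Fcgr1 window held a GAS pattern 109 bases before the start and a PU.1-type pattern, on the opposite strand, 55 bases before it. The Fcgr4 and Fcgr3 windows each held 1 PU.1-type pattern close to the start, 22 and 15 bases before it, Clec4e held 2 and Tlr13 held 1. The Fcgr3 and Clec4e windows also held a C/EBP-type pattern, 37 and 66 bases before the start. The Clec4d, Fcer1g and Clec2d windows held none of the 3 patterns. Across the 41 genes with a window, 21 (51.2%) held the PU.1-type pattern, against 21.3% of 27025 genes with a window. Among those tested, it was found in 8 of the 14 that were called higher in the mean challenge response (57.1%) and in 7 of the 14 that were not. The GAS pattern was found in 3 of the 41 genes (7.32%) and in 6.38% of all genes, and the C/EBP-type pattern in 9 of the 41 (22.0%) and in 8.55% of all genes. A pattern is a description of the letters and not a site.

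In the mean challenge response, 5 of 6 Fc receptor genes, 3 of 6 tested activating myeloid lectins, 2 of 3 tested inhibitory and DCIR-family lectins, 5 of 10 tested Toll-like receptors and Clec2d were higher after BAPN + AngII challenge, and none of the 34 tested genes was called lower in any comparison. That made 16 of 34 genes higher at a limma adjusted p under 0.05 over all genes, where 13.6% of all genes tested were higher. They were Clec4d, Clec4e, Tlr1, Fcgr2b, Fcgr4, Tlr13, Clec4n, Fcer1g, Fcgr3, Clec2d, Clec4a3, Fcgr1, Tlr6, Clec4a1, Tlr7 and Tlr3. Of these, Clec4d and Clec4e entered the tests only through day 3 groups, where their means were highest. Clec2d was higher in smSocs3-KO only (3.00), and its WT estimate was -0.21 (limma adjusted p = 0.758). The median log2 difference of the 34 genes in the mean challenge response was 0.58, beside -0.05 over all genes tested. In bulk aorta, fewer or more cells of a type and less or more RNA per cell cannot be told apart.

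**Figure D1:**
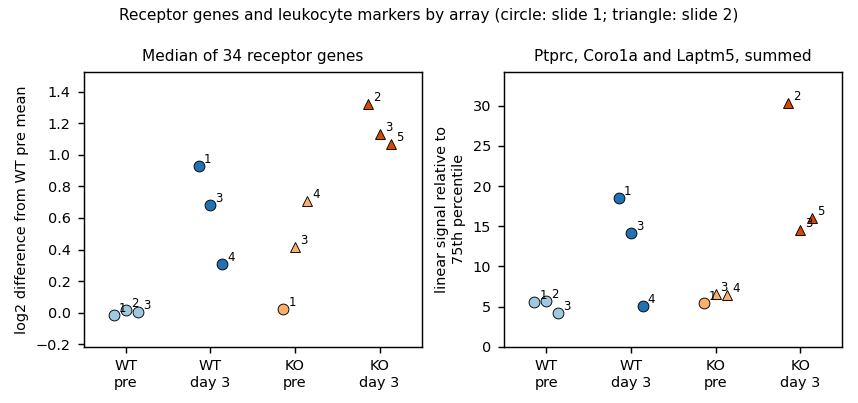
Left, the median over the 34 tested receptor genes of the log2 difference from the WT pre-challenge mean, 1 point per array, by group. Right, the summed linear signal, relative to the 75th percentile, of 3 pan-leukocyte genes on the same arrays. Numbers are replicate numbers, circles slide 1 and triangles slide 2. WT day 3 replicate 4 lay at 0.31 on the left and within the WT pre-challenge range on the right, and the smSocs3-KO day 3 arrays lay above all others on the left.

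By array, the median over the 34 genes lay between -0.01 and 0.02 on the WT pre-challenge arrays and at 0.93, 0.68 and 0.31 on the WT day 3 arrays. It was 0.02, 0.42 and 0.71 on the smSocs3-KO pre-challenge arrays, the lowest being the array on slide 1, and 1.32, 1.13 and 1.07 on the smSocs3-KO day 3 arrays. Some leukocyte markers moved with it and others did not. The summed linear signal of Ptprc, Coro1a and Laptm5, 3 of 3 measured pan-leukocyte genes, was 4.23 to 5.69 on the WT arrays taken before challenge and 5.09 to 18.6 on those of day 3. On the smSocs3-KO arrays it was 5.38 to 6.56 and 14.6 to 30.3. All 3 were called higher in the mean challenge response. Of 11 macrophage and monocyte markers, 9 were tested and 7 were called higher in it, among them Cd68 by 1.82 and Emr1, a surface antigen of mouse macrophages, by 0.90 on the log2 scale, although their summed signal, which the brightest genes dominate, overlapped between groups (206 to 255 and 181 to 323 on the WT arrays of the 2 times, 163 to 350 and 214 to 248 on the smSocs3-KO arrays). Of 7 tested neutrophil markers, 2 were called higher and none lower. T cell markers lay the other way, with 0 of 5 tested called higher and 2 called lower, and of 4 tested B cell markers none was called and all had estimates below 0. Smooth muscle markers also lay lower. All 7 of 7 had estimates below 0 in both genotypes, 2 were called lower in the mean challenge response, and their mean log2 signal was 6.99 to 7.08 in WT before challenge and 6.28, 6.34 and 7.04 at day 3, so WT day 3 replicate 4 was at the pre-challenge level in these markers. In smSocs3-KO it was 6.83 to 7.27 before challenge and 6.10 to 6.51 at day 3. The part of cell composition in the receptor values was not tested.

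In WT, 2 of 34 genes were called higher (Tlr13 and Tlr6) where 3.58% of all genes tested were, and 14 genes were higher and 2 lower (Clec10a and Clec3b) without overlap of the WT groups, where 20.7% of all genes were higher and 14.6% lower without overlap. In smSocs3-KO, 9 were called higher where 1.71% of all genes were, and 15 were higher without overlap beside 14.1% of all genes. At the threshold of the study's methods, an unadjusted p under 0.01 with a change of more than 4-fold, WT gave 1 higher gene (Clec4d, beside 1.11% of all genes higher) and smSocs3-KO gave 7 (Clec4d, Clec2d, Fcgr4, Tlr1, Fcgr2b, Tlr13 and Fcgr1, beside 1.44% higher). These counts in a single genotype moved with 1 array. The share of all genes called in each reduced fit is not given, so the counts below show only that dependence. Without WT day 3 replicate 4, WT gave 15 called genes, it gave 7 without smSocs3-KO pre-challenge replicate 1, 1 without any one of the smSocs3-KO day 3 arrays, and 0 without any one of the other WT arrays or without smSocs3-KO pre-challenge replicate 4. The smSocs3-KO count was 13 without WT day 3 replicate 4, 4 without any one of the WT pre-challenge arrays or smSocs3-KO day 3 replicate 2, 2 and 1 without smSocs3-KO pre-challenge replicates 1 and 3, and 0 without smSocs3-KO day 3 replicate 5. The count of the mean challenge response stayed between 12 and 16 whichever array was left out.

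**Figure D2:**
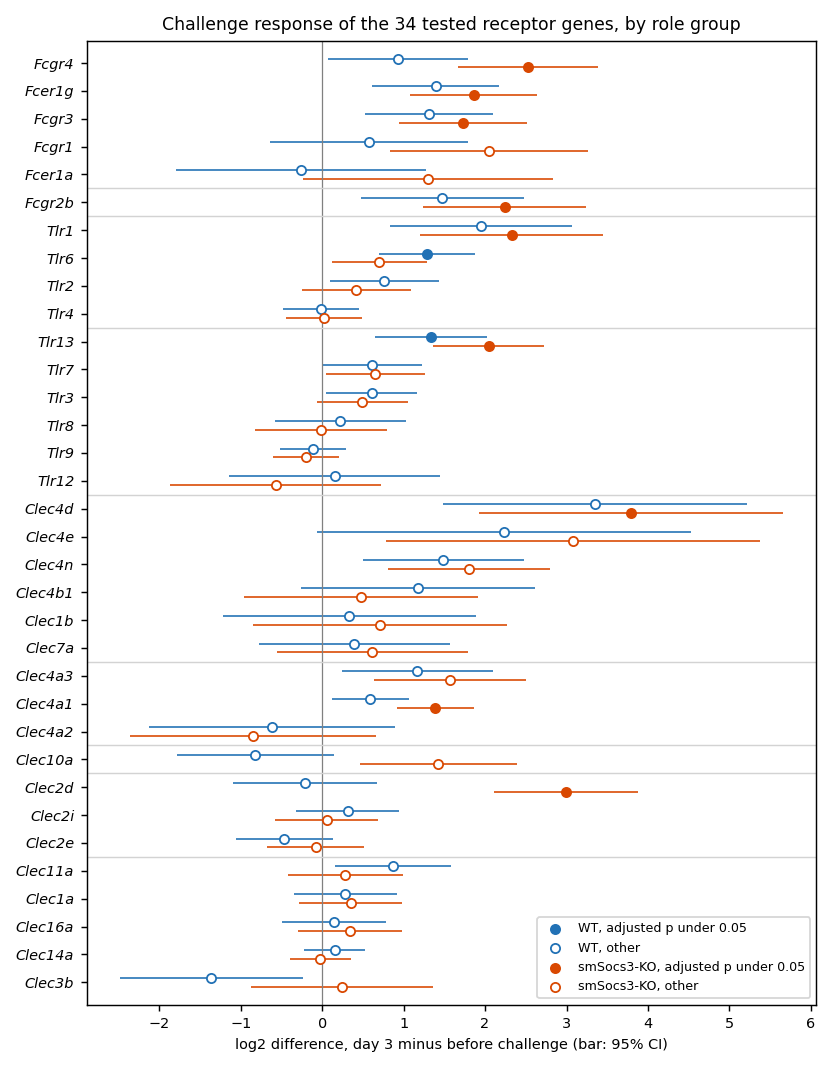
Log2 difference between day 3 and before challenge for each of the 34 tested receptor genes in WT (blue) and smSocs3-KO (orange), with 95% confidence intervals from the limma fit, grouped by role and with filled points at an adjusted p under 0.05. Clec4d had the largest estimate in both genotypes, Tlr4 lay near 0 in both, and Clec2d and Clec10a lay on opposite sides of 0 in the 2 genotypes.

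Among the activating Fc receptors, 4 of 5 genes were higher in the mean challenge response. Fcgr1 is the high-affinity receptor for IgG of macrophages and monocytes. Fcgr1 was at -1.62, -1.60 and -1.90 in WT before challenge and at -0.10, -0.46 and -2.83 at day 3, and at -1.53, -1.51 and -1.93 in smSocs3-KO before challenge and 0.38, 0.60 and 0.20 at day 3. At day 3 all smSocs3-KO arrays lay above all others, and WT replicate 4 lay below every pre-challenge array while the other WT day 3 arrays lay above them. The smSocs3-KO response was 2.05 (SE 0.55, 4.14-fold, adjusted p = 0.0707) and the WT response 0.57 (SE 0.55, adjusted p = 0.529), which became 1.42 (adjusted p = 0.00277) without WT day 3 replicate 4. Averaged over genotypes it was 1.31 (adjusted p = 0.0354). Of 24 alternatives 14 lost this call, slide as a block among them (adjusted p = 0.057). The adjusted p lay between 9.21e-05 without WT day 3 replicate 4 and 0.0807 over the alternatives tried.

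Fcgr4, a mouse activating receptor for IgG of monocytes, macrophages and neutrophils, showed the larger response in smSocs3-KO. Fcgr4 read -2.39, -2.85 and -2.83 on the WT arrays before challenge and -0.95, -1.65 and -2.67 at day 3, against -2.04, -2.05 and -1.52 and 0.65, 0.21 and 1.11 on the smSocs3-KO arrays. The smSocs3-KO day 3 arrays did not overlap with any other group, while WT day 3 replicate 4 lay within the WT pre-challenge range. The response was 2.53 in smSocs3-KO (SE 0.39, 5.76-fold, adjusted p = 0.0178) and 0.93 in WT (SE 0.39, adjusted p = 0.159), and their difference of 1.60 (95% interval 0.38 to 2.81) did not pass adjustment (unadjusted p = 0.015, adjusted p = 0.896).

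Fcgr3, the low-affinity activating IgG receptor, and Fcer1g, the adaptor chain that Fcgr1, Fcgr3, Fcgr4 and several lectins need at the cell surface, had similar responses. In WT, Fcgr3 was -0.59, -0.57 and -0.52 before challenge and 1.39, 0.85 and 0.02 at day 3, and in smSocs3-KO it was -0.50, 0.41 and 0.72 and 1.97, 1.73 and 2.11. Signals of Fcer1g were 2.25, 2.31 and 2.09 before and 4.33, 3.75 and 2.76 after challenge in WT, and 2.39, 2.93 and 3.15 before and 5.0, 4.37 and 4.67 after it in smSocs3-KO. For both genes the WT groups did not overlap and the smSocs3-KO groups did not overlap. Fcgr3 was 1.73 higher in smSocs3-KO at day 3 (SE 0.36, 3.31-fold, adjusted p = 0.0384) and 1.31 higher in WT, which narrowly missed the threshold (SE 0.36, adjusted p = 0.0581). For Fcer1g the estimates were 1.86 (SE 0.35, 3.63-fold, adjusted p = 0.0321) and 1.40 (SE 0.35, adjusted p = 0.0502). The smSocs3-KO call was lost in 14 of 25 alternatives for Fcgr3 and in 11 of 25 for Fcer1g. The extracellular parts of Fcgr3 and Fcgr2b are much alike in sequence, and how far their probes bind the other transcript was not tested.

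Fcgr2b is the inhibitory IgG receptor of myeloid and B cells and limits signals of the activating ones. Fcgr2b was at -0.46, -0.51 and -0.66 in WT before challenge and at 1.72, 1.23 and -0.16 at day 3, and at -0.49, 0.57 and 0.55 in smSocs3-KO before challenge and 2.83, 1.91 and 2.62 at day 3. Here too the groups before and after challenge did not overlap in either genotype. Its smSocs3-KO response of 2.24 (SE 0.45, 4.73-fold, adjusted p = 0.0379) stood beside a WT response of 1.47 (SE 0.45, adjusted p = 0.0774). The smSocs3-KO call of Fcgr2b was lost in 12 of 25 alternatives.

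Fcer1a, the IgE-binding chain of mast cells and basophils, was the Fc receptor with the smallest mean challenge response, 0.52 (SE 0.49, adjusted p = 0.452). Fcer1a read -3.67, -4.80 and -4.70 on the WT arrays before challenge and -5.77, -4.65 and -3.54 at day 3, against -4.40, -3.02 and -3.67 and -3.76, -2.27 and -1.17 on the smSocs3-KO arrays. It was well above background on 1 of 3 arrays in each WT group, on 2 of 3 smSocs3-KO arrays before challenge and on 3 of 3 at day 3, so most WT values are near the noise. It entered the tests only through the smSocs3-KO day 3 arrays, where it was highest. The genotype difference at day 3 was 2.25 (SE 0.70, unadjusted p = 0.00816, adjusted p = 0.158), with overlap between WT and smSocs3-KO. Of 6 mast cell markers, 5 were tested and Kit alone was called higher in the mean challenge response (0.75, adjusted p = 0.0336). The summed mast cell signal of WT arrays was 3.64 to 5.62 without challenge and 1.53 to 4.86 at day 3, and that of smSocs3-KO arrays 3.23 to 5.70 and 3.69 to 5.26.

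**Figure D3:**
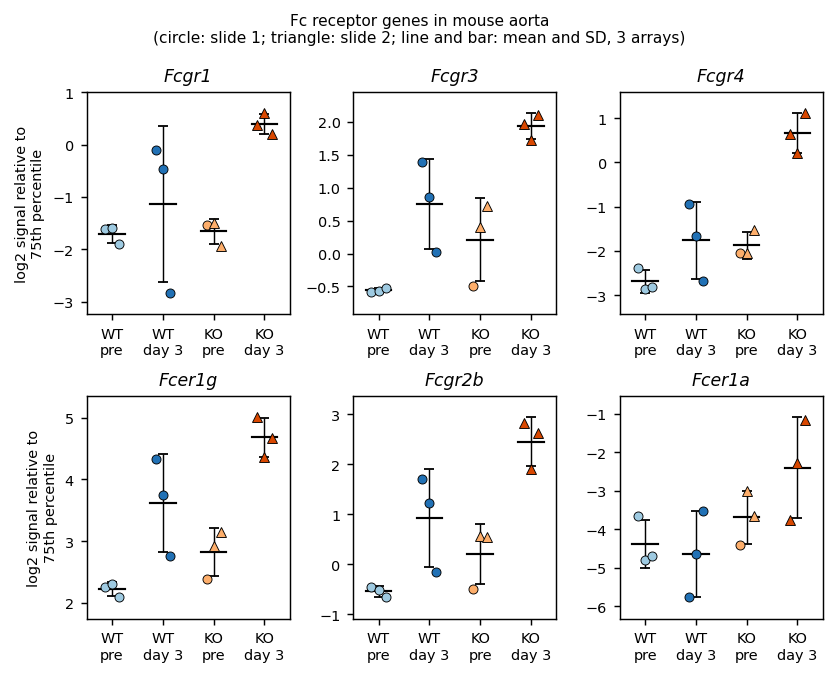
Log2 signal relative to the 75th percentile of the array for 6 Fc receptor genes, 1 point per array, in WT and smSocs3-KO (KO) aorta before challenge and at day 3, with the mean and SD of 3 arrays. For Fcgr1, Fcgr4, Fcgr3, Fcer1g and Fcgr2b the smSocs3-KO day 3 arrays lay above all smSocs3-KO pre-challenge arrays, and WT day 3 replicate 4 was the lowest of the WT day 3 arrays.

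Clec4d, an activating lectin of myeloid cells, had the largest estimate of the mean challenge response among the 34 genes. Clec4d and Clec4e (Mincle) form a receptor complex for mycobacterial glycolipids and for products of dead cells, and both use Fcer1g. In WT, Clec4d was -4.72, -4.51 and -4.54 before challenge and 0.06, -0.92 and -2.86 at day 3, and in smSocs3-KO it was -4.33, -4.06 and -1.32 and 1.02, -0.42 and 1.05. In WT before challenge Clec4d was not well above background on any array, and at day 3 it was on 3 of 3, so WT was at least 9.32-fold higher at day 3 (adjusted p = 0.0501). In smSocs3-KO, where 2 of 3 pre-challenge arrays and 3 of 3 day 3 arrays were above background, the difference was 3.79 (SE 0.85, 13.8-fold, adjusted p = 0.0459). This call was lost in 16 of 24 alternatives, slide as a block among them (adjusted p = 0.155). Pre-challenge replicate 4 of smSocs3-KO, at -1.32, stood far above the other 2 arrays of its group, and without it the difference was 4.75. Clec4d entered the tests only through the day 3 groups, where it was high. In the mean challenge response, whose WT part is set against arrays near the noise, it was 3.57 higher (SE 0.60, adjusted p = 0.00659). Over 23 alternatives this estimate lay between 1.88 and 4.05, and 1 lost the call (adjusted p up to 0.0541).

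Clec4e had a wider spread, and it entered the tests only through the smSocs3-KO day 3 arrays. Signals of Clec4e were -5.72, -6.64 and -5.68 before and -2.31, -2.40 and -6.62 after challenge in WT, and -4.86, -4.80 and -3.24 before and -0.25, -2.56 and -0.84 after it in smSocs3-KO. WT day 3 replicate 4 was as low as the WT pre-challenge arrays, none of which was well above background, and 2 of 3 WT arrays at day 3 were. The WT value at day 3 was therefore at least 1.68-fold higher (adjusted p = 0.197), and the smSocs3-KO difference was 3.08 (SE 1.04, 8.47-fold, adjusted p = 0.12) without overlap. In the mean challenge response, whose WT part is set against arrays near the noise, it was 2.66 (adjusted p = 0.0278). Of 23 alternatives 10 lost this call, slide as a block among them (adjusted p = 0.0573), with adjusted p-values of 0.000881 to 0.121 and estimates of 0.91 with normexp background correction to 3.37 without WT day 3 replicate 4.

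Clec4n (Dectin-2), a receptor for fungal mannans that also pairs with Fcer1g, was higher in the mean challenge response by 1.64 (SE 0.32, adjusted p = 0.0088). Clec4n was at -0.78, -1.05 and -0.90 in WT before challenge and at 1.33, 0.84 and -0.43 at day 3, and at -0.11, -0.19 and -0.17 in smSocs3-KO before challenge and 2.55, 1.44 and 0.94 at day 3. Neither genotype's groups overlapped, with 1.49 in WT (adjusted p = 0.0741) and 1.80 in smSocs3-KO (adjusted p = 0.0615). Clec7a (Dectin-1), the β-glucan receptor, which carries its own signalling motif, had the smallest response of the group. Clec7a read -1.19, -0.58 and -0.61 on the WT arrays before challenge and 0.25, -0.26 and -1.18 at day 3, against -1.23, -0.22 and 0.56 and 1.1, 0.44 and -0.59 on the smSocs3-KO arrays. Its groups overlapped in both genotypes, and its mean challenge response was 0.50 (95% interval -0.33 to 1.33, adjusted p = 0.338). Clec4b1 and Clec1b, the platelet receptor for podoplanin, were the other tested genes of the group, with mean challenge responses of 0.83 and 0.52 and adjusted p-values of 0.206 and 0.453. The 3 Clec1b probes gave 0.23, 0.52 and 0.98. Clec5a was well above background on no array and Clec9a, a marker of a dendritic cell subset, on 3 of 12.

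In the group of inhibitory lectins and lectins listed with the dendritic cell immunoreceptor (DCIR) family, 3 of 7 genes were tested. Clec4a1 had closely spaced replicates in WT before challenge. In WT, Clec4a1 was 0.13, 0.10 and 0.12 before challenge and 1.09, 0.76 and 0.28 at day 3, and in smSocs3-KO it was 0.45, 0.30 and 0.81 and 1.74, 2.01 and 1.97. WT lay within 0.10 and 0.13 before challenge, the smSocs3-KO day 3 arrays lay above all others, and WT day 3 replicate 4 was again the lowest of its group. The response was 1.39 in smSocs3-KO (SE 0.21, 2.62-fold, adjusted p = 0.0178) and 0.59 in WT (SE 0.21, adjusted p = 0.114).

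Clec4a3 had the largest mean challenge response of the DCIR family, 1.37 (SE 0.30, adjusted p = 0.0122). Signals of Clec4a3 were -2.12, -1.89 and -2.13 before and -0.29, -0.71 and -1.63 after challenge in WT, and -2.46, -1.25 and -0.80 before and 0.25, 0.23 and -0.30 after it in smSocs3-KO. Day 3 and pre-challenge arrays did not overlap in either genotype. Clec4a2, a family member that carries an inhibitory motif (ITIM), lay the other way without passing the test, at -0.73 (95% interval -1.80 to 0.34, adjusted p = 0.281). Clec4a2 was at -1.56, -2.42 and -2.25 in WT before challenge and at -2.54, -1.5 and -4.04 at day 3, and at -0.42, -2.73 and -2.70 in smSocs3-KO before challenge and -2.92, -3.02 and -2.45 at day 3. Its highest array was smSocs3-KO pre-challenge replicate 1, and all groups overlapped with those they were compared with. Clec4a4 and Clec4b2 were well above background on no array, Clec12a on 1 (smSocs3-KO pre-challenge replicate 1) and Clec12b on 6 of 12.

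Clec10a, a galactose-binding uptake lectin of macrophages and dendritic cells, lay on opposite sides of its pre-challenge range in the 2 genotypes. Clec10a read 1.40, 1.59 and 0.98 on the WT arrays before challenge and 0.23, 0.76 and 0.52 at day 3, against 0.76, 1.29 and 1.66 and 1.82, 2.35 and 3.81 on the smSocs3-KO arrays. WT lay lower at day 3 and smSocs3-KO higher, each without overlap, although neither response passed the test alone (-0.82, adjusted p = 0.252 in WT, and 1.43, adjusted p = 0.0958 in smSocs3-KO). At day 3 it was 2.16 higher in smSocs3-KO (SE 0.44, 4.47-fold, adjusted p = 0.0451), a call lost in 16 of 25 alternatives. The interaction was 2.25 (95% interval 0.89 to 3.61, unadjusted p = 0.00399, adjusted p = 0.735). Clec4f, the Kupffer cell lectin, was above background on no array and Clec4g, of liver sinusoid endothelium, on 5 of 12.

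Clec2d carried the largest genotype difference. It encodes a ligand of inhibitory NK cell receptors of the Klrb1 family and is found on leukocytes and other cells. In WT, Clec2d was -3.56, -3.71 and -3.23 before challenge and -3.41, -3.46 and -4.27 at day 3, and in smSocs3-KO it was -3.14, -3.87 and -2.08 and -0.32, 0.00 and 0.22. The 3 smSocs3-KO day 3 arrays lay together and far above the other 9, and the WT groups overlapped. Its smSocs3-KO response was 3.00 (SE 0.40, 7.98-fold, adjusted p = 0.0112), its WT response -0.21 (95% interval -1.09 to 0.67, adjusted p = 0.758), and its genotype difference at day 3 3.68 (SE 0.40, 12.8-fold, adjusted p = 0.00724). The difference between the 2 responses was 3.21 (95% interval 1.96 to 4.46) at an unadjusted p of 0.000153 and an adjusted p of 0.29. Within slide 2 alone the smSocs3-KO response was 2.94, from 3 day 3 and 2 pre-challenge arrays. Over 24 alternatives this response lay between 1.85 and 3.47, and 3 lost its call (adjusted p up to 0.318). The genotype difference at day 3 lay between 2.18 and 3.86, and 2 of 24 lost its call. The probe, on chromosome 6 at 129136413 to 129136472 (+ strand, mm9, per the scanner files), was well above background on 11 of 12 arrays. Other Clec2 genes were not called or were dim. Clec2i had the smallest mean challenge response, 0.18 (95% interval -0.26 to 0.63). Signals of Clec2i were -2.62, -2.86 and -3.28 before and -2.12, -2.35 and -3.34 after challenge in WT, and -2.94, -2.97 and -2.73 before and -2.82, -2.86 and -2.79 after it in smSocs3-KO. Its groups overlapped throughout. Clec2e was at -0.27 (adjusted p = 0.302), and Clec2g, Clec2h and Clec2l were above background on no array. Of 5 NK cell markers, 2 were tested and neither was called in the mean challenge response, and the summed NK cell signal before challenge was 0.549 to 0.762 in WT and 0.569 to 0.730 in smSocs3-KO, against 0.585 to 0.698 and 0.480 to 0.625 at day 3.

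**Figure D4:**
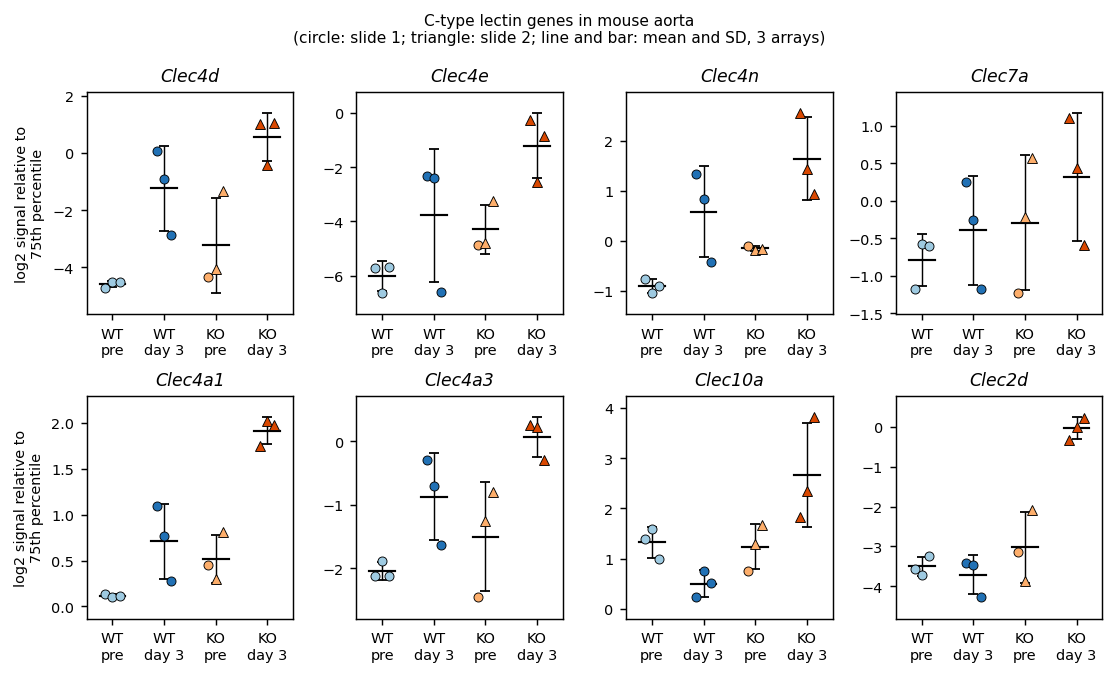
Log2 signal relative to the 75th percentile of the array for 8 C-type lectin genes, 1 point per array, by group, with the mean and SD of 3 arrays. Clec2d was near 0 on the 3 smSocs3-KO day 3 arrays and below -2 on all other arrays, Clec10a lay lower at day 3 in WT and higher in smSocs3-KO, and Clec4d and Clec4e were lowest in WT before challenge, where neither was well above background.

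Among the surface Toll-like receptors, Tlr1 and Tlr6, which each pair with Tlr2 to bind lipopeptides, were higher in the mean challenge response while Tlr2 and Tlr4 were not called. Tlr1 changed the most. Tlr1 was at -3.66, -3.78 and -3.85 in WT before challenge and at -0.98, -1.62 and -2.84 at day 3, and at -4.00, -2.54 and -3.14 in smSocs3-KO before challenge and -0.07, -1.5 and -1.13 at day 3. Day 3 and pre-challenge arrays did not overlap in either genotype, with 1.95 in WT (SE 0.51, adjusted p = 0.0533) and 2.33 in smSocs3-KO (SE 0.51, 5.01-fold, adjusted p = 0.0429). Of 24 alternatives 16 lost the smSocs3-KO call of Tlr1, slide as a block among them (adjusted p = 0.145). Tlr6 was called in WT. Tlr6 read -3.01, -2.77 and -2.34 on the WT arrays before challenge and -1.24, -1.36 and -1.67 at day 3, against -2.61, -1.86 and -1.93 and -1.1, -1.80 and -1.39 on the smSocs3-KO arrays. The WT response was 1.29 (SE 0.27, 2.44-fold, adjusted p = 0.0335) and the smSocs3-KO response 0.70 (SE 0.27, adjusted p = 0.152), and their difference of -0.59 did not pass the test (unadjusted p = 0.147, adjusted p = 0.97). The WT call of Tlr6 was lost in 10 of 25 alternatives.

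Tlr2, the shared partner of both, had a smaller estimate. In WT, Tlr2 was 0.28, 0.71 and 0.80 before challenge and 1.94, 1.03 and 1.1 at day 3, and in smSocs3-KO it was 0.42, 1.31 and 1.25 and 1.57, 1.53 and 1.13. WT did not overlap between times and smSocs3-KO did. Estimates were 0.76 in WT (adjusted p = 0.143), 0.42 in smSocs3-KO (adjusted p = 0.414) and 0.59 on average (95% interval 0.12 to 1.06, adjusted p = 0.0692). Tlr4, the endotoxin receptor, had an estimate near 0. Signals of Tlr4 were 0.97, 0.87 and 1.08 before and 0.85, 0.69 and 1.34 after challenge in WT, and 0.69, 1.35 and 1.01 before and 0.87, 1.1 and 1.15 after it in smSocs3-KO. Its mean challenge response of 0.00, written as 0.0044 at full precision, had a 95% interval of -0.33 to 0.34. Tlr5, the flagellin receptor, was well above background on 3 of 12 arrays and was not tested.

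Endosomal Toll-like receptors, which bind nucleic acids, were led by Tlr13, the mouse receptor for bacterial ribosomal RNA. Tlr13 was at 0.22, -0.22 and 0.38 in WT before challenge and at 2.11, 1.51 and 0.77 at day 3, and at 0.52, 0.11 and 0.14 in smSocs3-KO before challenge and 2.58, 2.24 and 2.08 at day 3. It was the 1 gene called in both genotypes, at 1.34 in WT (SE 0.31, 2.53-fold, adjusted p = 0.0404) and 2.05 in smSocs3-KO (SE 0.31, 4.13-fold, adjusted p = 0.0173), and day 3 arrays lay above pre-challenge arrays in both. Of 25 alternatives, 15 lost the WT call of Tlr13 (limma adjusted p up to 0.167) and 4 its smSocs3-KO call. Tlr7, for single-stranded RNA, and Tlr3, for double-stranded RNA, passed narrowly in the mean challenge response, at 0.63 (adjusted p = 0.0403) and 0.55 (adjusted p = 0.0494). Tlr7 lost the call in 14 of 24 alternatives and Tlr3 in 17 of 23, with estimates of Tlr3 down to 0.09. Both lost it without WT day 3 replicate 4, among other arrays (adjusted p = 0.0571 and 0.0552), and with slide as a block (adjusted p = 0.0778 and 0.0917). The second kept probe of Tlr7 gave 0.86 (adjusted p = 0.0124 among probes).

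Tlr8 had the smallest mean challenge response of the endosomal receptors, 0.10 (95% interval -0.47 to 0.67). Tlr8 read -3.72, -3.75 and -3.58 on the WT arrays before challenge and -3.49, -3.30 and -3.60 at day 3, against -2.50, -4.24 and -3.60 and -3.42, -3.89 and -3.08 on the smSocs3-KO arrays. Tlr9, the receptor for unmethylated DNA, stayed within 1.58 and 2.25 on all 12 arrays. Its mean challenge response was -0.16 (95% interval -0.44 to 0.13, adjusted p = 0.388). Tlr12, a receptor for the protein profilin of parasites, was at -0.21 (adjusted p = 0.725), and Tlr11, its partner, was above background on no array.

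**Figure D5:**
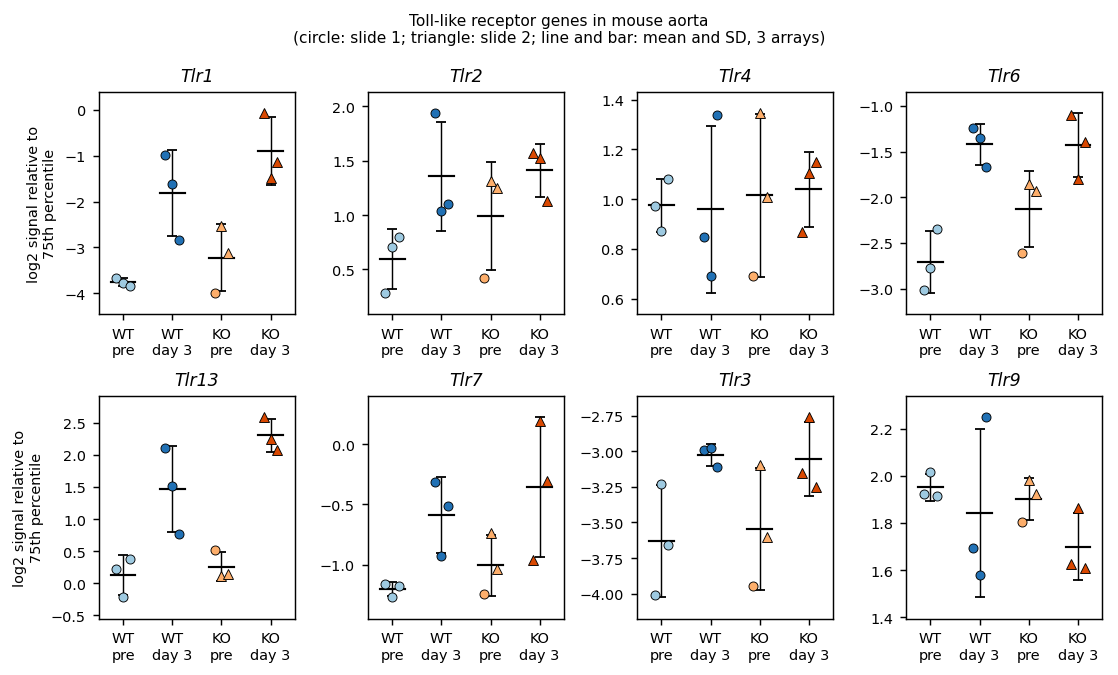
Log2 signal relative to the 75th percentile of the array for 8 Toll-like receptor genes, 1 point per array, by group, with the mean and SD of 3 arrays. Tlr1 and Tlr13 lay higher at day 3 in both genotypes, Tlr6 most clearly in WT, and Tlr4 and Tlr9 did not separate by challenge.

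The lectins of vessel wall, stroma and plasma did not pass the test in the mean challenge response (0 of 5 tested). Clec11a, a secreted growth factor of stromal cells, had the largest estimate, 0.58 (SE 0.23, adjusted p = 0.0867). In WT, Clec11a was 2.26, 2.51 and 2.49 before challenge and 3.40, 3.28 and 3.19 at day 3, and in smSocs3-KO it was 1.81, 2.94 and 2.74 and 2.99, 3.21 and 2.14. It was higher without overlap in WT. The smallest was that of Clec14a, an endothelial lectin, 0.07 (95% interval -0.20 to 0.33), and its second probe gave -0.29. Signals of Clec14a were -0.98, -0.70 and -0.72 before and -0.65, -0.47 and -0.83 after challenge in WT, and -1.03, -0.68 and -0.71 before and -0.72, -0.74 and -1.02 after it in smSocs3-KO. Clec3b (tetranectin), a plasminogen-binding plasma and matrix protein, differed between genotypes at the threshold of the study at day 3. Clec3b was at 0.41, 0.46 and 0.48 in WT before challenge and at -2.0, 0.17 and -0.91 at day 3, and at 0.90, 0.28 and 2.02 in smSocs3-KO before challenge and 1.32, 1.42 and 1.18 at day 3. WT lay lower at day 3 without overlap (-1.36, adjusted p = 0.123), with a wide spread, and all smSocs3-KO day 3 arrays lay above all WT day 3 arrays (2.22, SE 0.51, unadjusted p = 0.00117, adjusted p = 0.0674). Clec1a, of endothelium, and Clec16a, an intracellular protein, were at 0.32 and 0.24 with adjusted p-values of 0.269 and 0.398. Clec18a and Clec3a were above background on no array. Endothelial markers were not called in the mean challenge response (0 of 5 tested).

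Before challenge, smSocs3-KO and WT did not differ by the test in any of the 34 genes, where 0.0264% of all genes tested were higher, and 0 of 34 had an unadjusted limma p under 0.05. All the same, 8 of 34 genes lay higher in smSocs3-KO without overlap beside 6.48% of all genes, and the median difference was 0.40 beside 0.00 over all genes. That median was 0.02 with slide as a block in the fit, where this comparison rests on the single smSocs3-KO array of slide 1. Clec4d was above background on 2 of 3 smSocs3-KO arrays before challenge against 0 of 3 in WT, but the higher mean rested on smSocs3-KO replicate 4, at -1.32, and with slide as a block the difference was 0.26 on the log2 scale (adjusted p = 0.966).

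At day 3, 4 of 34 genes were called higher in smSocs3-KO than in WT (Clec2d, Fcgr4, Clec10a and Clec4a1) beside 0.957% of all genes tested, and 10 were higher without overlap beside 7.87% of all genes. At the threshold of the study there were 5 higher genes (Clec2d, Fcgr4, Clec3b, Fcer1a and Clec10a, beside 0.984% of all genes higher), of which Fcer1a was above background on 1 of 3 WT arrays and so gives no firm difference. Fcgr4 was 2.42 higher (SE 0.39, 5.34-fold, adjusted p = 0.022) and Clec4a1 1.2 (SE 0.21, 2.3-fold, adjusted p = 0.0297). These calls were lost in 6 of 25 alternatives for Fcgr4 and in 11 of 25 for Clec4a1. The label genes of the families gave 1.53 for Fcgr1, 1.79 for Clec4d and 0.05 for Tlr2 (adjusted p = 0.217, 0.331 and 0.953). With slide as a block, which rests on the single smSocs3-KO array of slide 1, none of the 34 was called at day 3, and the estimate stayed at 3.52 for Clec2d (adjusted p = 0.221), 2.16 for Fcgr4 and 1.1 for Clec4a1 and became 1.44 for Clec10a (adjusted p = 0.377), from 2.16, while the median over the 34 genes became 0.01, from 0.68. The count was 1 without smSocs3-KO day 3 replicate 5 and 2 without smSocs3-KO day 3 replicate 3, WT day 3 replicate 3 or any one of the WT pre-challenge arrays. The shares over all genes in these reduced fits are not given.

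The genotype by challenge interaction, the smSocs3-KO response minus the WT response, was called for 0 of 34 genes and for 0 of all genes tested (0%) by limma, with 5 of 34 at an unadjusted p under 0.05 (Clec2d, Clec10a, Fcgr4, Clec4a1 and Clec3b) beside 5.34% of all genes tested. Clec2d and Clec10a passed the threshold of the study in the higher direction, where 0.206% of all genes did, and 0.101% of all genes passed it in the lower direction. No response was therefore shown to differ between genotypes after adjustment. The median over the 34 genes was 0.35 beside -0.06 over all genes, it was 0.03 without WT day 3 replicate 4, and it turned to -0.02 with slide as a block and to -0.06 without smSocs3-KO pre-challenge replicate 1.

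Genes that serve these receptors were counted from lists of pathway members, in the mean challenge response. In the ITAM pathway, which passes on signals of Fc receptors and lectins, 11 of 13 tested genes were higher and none lower, among them Tyrobp, the adaptor chain that other receptors use in place of Fcer1g (1.53, adjusted p = 0.00677), the Src-family kinases Fgr and Lyn (1.66 and 1.60), Btk (1.27) and Vav1 (1.23). Tyrobp lay at 2.37, 2.26 and 2.28 in WT before challenge and at 4.50, 3.96 and 2.85 at day 3, so replicate 4 was again the low array. Of the co-receptors and trafficking proteins of Toll-like receptors, 6 of 8 were higher and none lower: the lipopolysaccharide co-receptor Cd14 (1.36), Ly86 (1.17), the binding protein Lbp (1.14), the Tlr4 partner Ly96 (0.84), Unc93b1, which carries Toll-like receptors to endosomes (0.75), and the chaperone Hsp90b1 (0.38), which was 0.81 in WT (adjusted p = 0.0334) and -0.05 in smSocs3-KO (adjusted p = 0.867). At day 3 Lbp was 2.46 higher in smSocs3-KO than in WT (adjusted p = 0.00724).

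Of the intracellular adaptors and kinases of the Toll-like receptor pathway, 3 of 19 were higher (Irf5 0.97, Myd88 0.78 and Ikbkg 0.60) and 1 was lower (Rela -0.37). Of 10 negative regulators, 3 were higher and none lower: the phosphatases Inpp5d (1.38) and Ptpn6 (1.15), which inhibitory receptors recruit, and Irak3 (0.64), which holds back Myd88 signalling. Of 11 reported endogenous ligands, 2 were higher and none lower, podoplanin (Pdpn, 1.16), the ligand of Clec1b, and the proteoglycan versican (Vcan, 1.05). Over all genes tested, 13.6% were called higher and 9.18% lower in this comparison, so the count of the adaptors and kinases was near that background.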

How the data were processed

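Total RNA of 12 mouse aorta samples was hybridised in 1 colour (Cy3) to SurePrint G3 Mouse v2 8x60K arrays. The deposited scanner files hold the processed signal intensity of each spot, background-subtracted by the authors with Agilent Feature Extraction, whose version is 10.7.1.1 in the file headers and 9.5.1.1 in the submitters' processing notes. Probe positions in these files are on mm9. The deposited table of the series holds quantile-normalized signal values on a linear scale and served as an alternative. Groups came from the sample titles, with 3 arrays each, and nothing states that they were separate animals, so p-values measure the spread between these samples. Probes were averaged over spots and scaled to the 75th percentile of the array over 55681 probes on the log2 scale, 32291 probes were kept, and the brightest kept probe stood for a gene (11 of the 49 genes had several probes, 64 in all, of which 38 were kept). Means of the 4 groups were fitted with limma 3.58.1 (R 4.3.3) without covariates over all genes, with Benjamini-Hochberg adjustment, and the fit was tested on simulated data. A probe dim on a whole group gives a bound, the mean of the bright group against the higher of the dim signal and the lowest signal well above background on each array. Such a bound concerns the group means and is not a confidence limit. The genes printed in full were Tlr2, Clec4d and Fcgr1, those past either threshold in a comparison of 2 groups or the interaction, and the largest and smallest mean challenge response of each role group. Clec4e and Clec4n were added after their values were seen. The members and lists were chosen with earlier results of these data known. Promoter sequences are from RefSeq (GRCm38.p6), and all 49 names were found there. Background correction, normalization, filter, probe choice, variance model, slide, replicate number and single arrays were varied.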

Additional observations from a re-analysis of the deposited data

Results flagged for a closer look

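Clec10a was the receptor gene whose arrays all lay lower at day 3 in WT and all higher in smSocs3-KO than before challenge. The difference between the 2 responses was 2.25 on the log2 scale (limma unadjusted p = 0.00399, adjusted p = 0.735), so it did not pass the test over all genes. Groups of 3 arrays are too small for a test of single outlying arrays.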

How the results depend on the processing

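Of the 25 alternatives, those that left out 1 array gave 12 to 16 called genes in the mean challenge response (16 with all arrays) whichever array it was, and the replicate number as a block gave 6, while counts within 1 genotype moved with nearly every choice. Leaving out each array in turn gave 0 to 15 called genes in WT (0 to 4 past the threshold of the study), 0 to 13 in smSocs3-KO (4 to 8), 0 before challenge (0 to 1), 1 to 5 between genotypes at day 3 (3 to 5), 0 to 1 for the interaction (1 to 3) and 1 to 4 past the threshold of the study in the mean challenge response, with medians of 0.44 to 0.73, 0.38 to 0.96, 0.19 to 0.58, 0.44 to 0.99, -0.0564 (without smSocs3-KO pre-challenge replicate 1) to 0.47 and 0.43 to 0.73 in the same order. A fit that leaves 2 arrays in a group takes its spread from all groups. Shares over all genes tested are not given for the alternatives, so their counts describe only the dependence on processing.

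Called genes in WT numbered 1 with quantile normalization or the deposited table, 0 with no filter on dim probes, ordinary variances, the replicate number as a block or only the groups compared (a fit that gives no interaction or mean challenge response), 4 with probes above background on all 12 arrays or the percentile over spots (chosen after seeing the data), 6 with a mean-variance trend and 7 with slide as a block. In smSocs3-KO they numbered 4 with no filter, 0 with ordinary variances or the replicate block, and 2 with slide as a block, and at day 3 between genotypes 2, 1 with ordinary variances or only the groups compared, and 0 with slide or the replicate number as a block. Past the threshold of the study were, with normexp background correction, 0 in WT, 2 in smSocs3-KO, 2 at day 3, 1 for the interaction and 0 in the mean challenge response, and with normexp and quantile normalization 0, 1, 1, 1 and 0. With quantile normalization or the deposited table WT gave 2. Probes above background on all 12 arrays gave 0, 4, 3, 1 and 0. The slide as a block gave 1 at day 3, 1 for the interaction and 1 in the mean challenge response, the replicate block 3 in smSocs3-KO, 2 at day 3 and 1 for the interaction, and ordinary variances 1 for the interaction.

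Medians were 0.29 in WT, 0.35 in smSocs3-KO, 0.24 at day 3 and 0.0408 for the interaction with no filter, 0.39 in smSocs3-KO with normexp, and 0.024 before challenge, 0.0097 at day 3 and -0.022 for the interaction with slide as a block, where the replicate block gave 0.0315 for the interaction. Deviations of same-numbered arrays correlated in some pairs and not in others (r from -0.403 to 0.464), so the numbers were not taken to pair the samples. Tlr2 at day 3 turned to -0.80 with slide as a block and took values from -0.11 to 0.34 when single arrays were dropped (-0.11 and -0.0741 without WT day 3 replicates 3 and 4, -0.0256 and -0.0039 without smSocs3-KO day 3 replicates 2 and 3). For single genes, 839 of the alternative values kept direction and call, 209 lost the call, 15 gained it and 5 changed sign, all 5 for Tlr2. The causes were not tested. Signals near background limit Clec4d, Clec4e and Fcer1a.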
